A study of Mus musculus with 21 samples.

Results

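A group of 10 genes of mitotic entry and chromosome segregation was followed here: the cyclin-dependent kinase gene Cdk1, the cyclin genes Ccna2, Ccnb1 and Ccnb2, the kinase genes Plk1, Aurka, Aurkb and Bub1, and the proliferation genes Mki67 and Top2a. They were chosen by name as a group of known function, and all 10 of 10 were found among the 19304 protein-coding mouse genes of at least 2 kb that were examined. Each was described by its cover, the percent of its RefSeq gene body that lay inside called peaks of H3K36me3, trimethylation of lysine 36 of histone H3. The mark was profiled by chromatin immunoprecipitation and sequencing in C2C12, an established mouse myoblast line that fuses into myotubes in culture. WT cells were profiled at day 0, at days 1 and 5 in control medium (CTL) and at days 1 and 5 under methionine restriction (MR), with 2 replicate libraries in each of these 5 groups. The Setd2 KO lines 1 and 2 had 1 library each in the same 5 conditions, which gives 20 libraries. All libraries come from the same parental line, and nothing in the labels says that replicates were separate cultures, so p-values measure the spread between these libraries, which may be technical.

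H3K36me3 is laid down by SETD2, which travels with elongating RNA polymerase II, so the mark builds up over the bodies of transcribed genes and is typically sparse near their starts. Cyclin A and the B-type cyclins activate CDK1 to drive cells into mitosis, and PLK1, the Aurora kinases and BUB1 act on centrosomes, spindle and kinetochores. Transcription of such genes peaks in the late cell cycle, largely through CHR and CCAAT elements near their starts, and is shut off when myoblasts leave the cycle to differentiate. Methionine is the source of S-adenosylmethionine, the methyl donor of histone methylation. Question and design are those of the series: how the mark behaves during differentiation when methionine is limited.

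The genes lie on 7 chromosomes of GRCm38.p6 and span 6.04 kb (Aurkb) to 31.7 kb (Bub1), exons and introns included. Cdk1 is at chr10:69335146-69352912, Ccna2 at chr3:36564865-36573038, Ccnb1 at chr13:100778739-100786486 and Ccnb2 at chr9:70407689-70421554. The kinase genes are at chr7:122159435-122169884 (Plk1), chr2:172356190-172370886 (Aurka), chr11:69045624-69051664 (Aurkb) and chr2:127800197-127831859 (Bub1). Mki67 is at chr7:135689784-135716450 and Top2a at chr11:98992947-99024199. The first 863 bp of Ccna2 in genome order, 10.6% of its body, are shared with Exosc9, and 1.65% of Aurka is shared with Cstf1. Ccnb1 and Ccnb2 each have 1 named pseudogene copy in the annotation, so reads could be split between copies and their cover is uncertain to that degree.

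Promoter sequences from RefSeq (GRCm38.p6), 250 bases before to 50 after the start, were available for 8 of the 10 genes. They are shown because CHR and CCAAT elements are known near the starts of such genes, and no link to cover was tested. The search on both strands was for the CHR as TTTGAA or TTCGAA, for the CCAAT box, and for an E2F site as TTTCCCGC, TTTGGCGC, TTTCGCGC or TTTGCCGC. No match overlapped another in these 8 promoters. A CCAAT was present in 8 of 8, against 37.4% of 32851 RefSeq promoters of that length. A CHR form was present in 7 of 8, against 19.2%, and an E2F form in 1 of 8 (Cdk1), against 2.26%. The 100 bases before the start of 4 of them follow, 5′ to 3′ on the minus strand, with CHR and CCAAT letters of either strand in capitals (ATTGG and TTCAAA are the reverse complements of CCAAT and TTTGAA).
Cdk1, chr10:69352913-69353012: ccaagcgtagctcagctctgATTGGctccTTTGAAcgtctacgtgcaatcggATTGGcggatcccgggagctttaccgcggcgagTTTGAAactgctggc
Ccnb1, chr13:100786487-100786586: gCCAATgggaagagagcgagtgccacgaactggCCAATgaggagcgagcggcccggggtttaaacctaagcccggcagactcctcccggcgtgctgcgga
Ccnb2, chr9:70421555-70421654: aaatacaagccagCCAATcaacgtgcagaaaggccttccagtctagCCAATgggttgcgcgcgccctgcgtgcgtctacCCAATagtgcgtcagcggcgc
Top2a, chr11:99024190-99024289: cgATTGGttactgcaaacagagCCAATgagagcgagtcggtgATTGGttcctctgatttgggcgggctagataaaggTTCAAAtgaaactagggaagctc
The last 10 bases of the Top2a stretch lie inside its annotated body. Within these 100 bases Cdk1 and Top2a held both elements and the B-type cyclin genes held CCAAT alone. A match is a description of letters only.

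The Setd2 body itself was covered to 45.6% to 82.8% in the WT libraries, to 0 to 24% in KO line 1 and to 0 in all 5 libraries of KO line 2, although peaks on the gene do not measure the protein. WT lists held 63423 to 87398 peaks over 110 to 183 Mb, whereas KO line 1 covered 0.307 to 74.1 Mb and KO line 2 0.00821 to 7.13 Mb. Read depth is unknown, because a peak list carries none. Cover in a bulk culture cannot tell fewer cells with the mark apart from a thinner mark in every cell. The label was borne out by some of 5 myoblast markers: Vim was covered to 46.3% to 99.1% and Des to 34.5% to 89.1% in the WT libraries. Myod1 had 50.1% to 78.4% outside restriction and 0 in all 4 restricted libraries, Myf5 did not exceed 12.2% and was at 0 in 7 of 10 WT libraries, and Pax7 had 0.675% to 7.07%. Of 13 markers of leukocytes, endothelium, epithelium, neurons and adipocytes, 11 were at 0 in every WT library. The other 2, Cdh1 and Rbfox3, reached at most 0.438% and 0.0678%. The share of the members' results that goes with this library-wide variation was not tested.

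In proliferating WT myoblasts at day 0, the mitotic genes were covered over most of their bodies. All 10 had at least 50% of the body inside peaks in both libraries, against 57.4% and 53.0% of the 9514 genes tested. Top2a, the topoisomerase that untangles sister chromatids, was covered to 96.9% and 95.8%, mostly as a single peak of 30.3 and 29.9 kb. Cdk1 stood next with 93.6% and 94.4%. The lowest were Ccna2, with 74.6% and 74.5%, and Aurkb, with 72.7% and 72.3%. Bub1 was the least even between replicates, at 90.0% and 66.3%. Between these lay Plk1, Ccnb1, Aurka, Mki67 and Ccnb2 in falling order of their means, 91.1% to 87.0%, and in this run of genes the libraries of each overlapped those of the next. The strongest peak on each of the 10 genes ranked between percentiles 96.2 and 99.8 of its own day 0 list by the authors' fold enrichment.

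**Figure D1:**
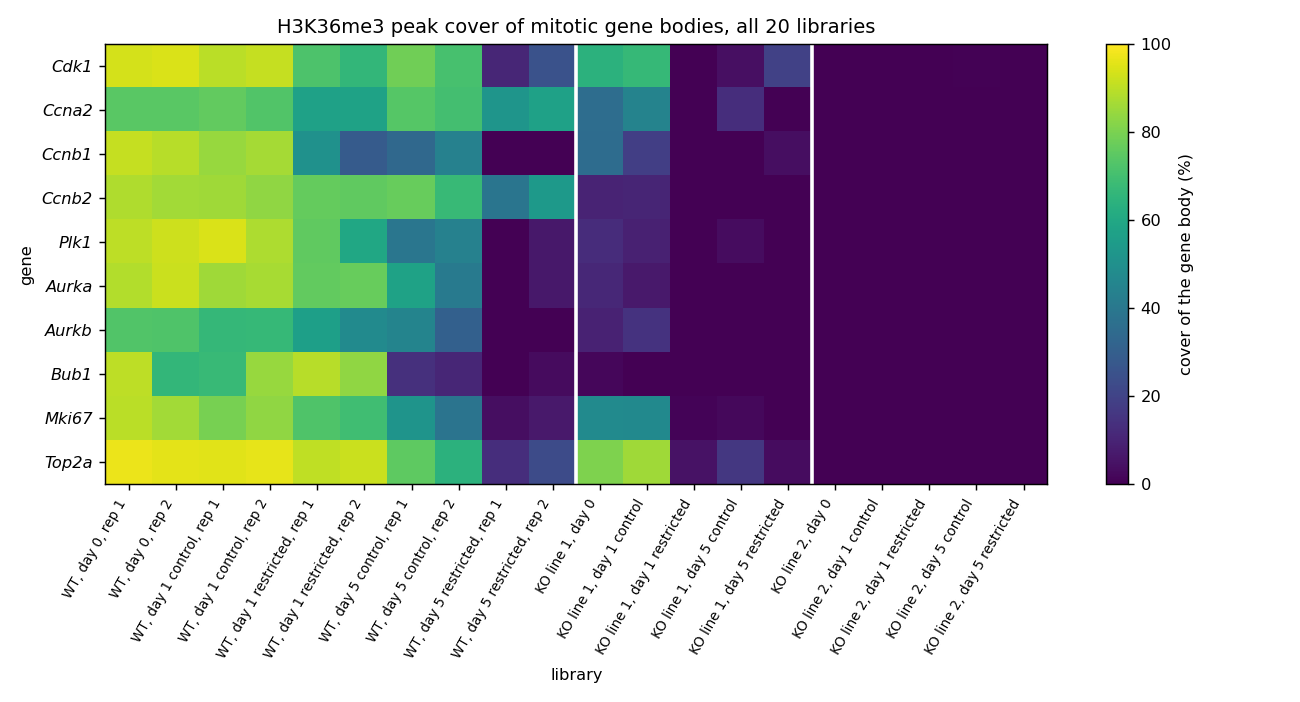
Percent of each gene body inside H3K36me3 peaks (color scale, 0 to 100%) for the 10 genes (rows) in the 20 libraries (columns, grouped as WT, KO line 1 and KO line 2). WT libraries of day 0 and control day 1 are bright throughout, those of restricted day 1 are dimmer for Ccnb1 and Aurkb, the restricted day 5 libraries are dark except for Ccna2 and Ccnb2, KO line 1 shows Cdk1 and Top2a brightly in its day 0 and control day 1 libraries, and KO line 2 is dark everywhere.

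Entry into differentiation was examined first, in control medium. After 1 day the means of the mitotic genes stood at 92.0% (Aurkb) to 100% (Plk1) of the day 0 means. Cover is near its ceiling on most of these genes and does not register the strength of a peak. The strongest peak of each gene had a −log10 q of 3.96 to 11 in these libraries, beside 6.33 to 21.5 at day 0, values of separate lists that were not tested. Cdk1 had 89.8% and 91.2%, Ccnb1 at 84.7% and 86.5%, and Top2a at 95.7% and 96.3%. Differences from day 0 ran from −6.55 points (Mki67, SE 4.83) to −0.00478 points (Plk1, SE 5.68), with a median of −2.91 points beside −5.31 points over all genes tested. In limma with BH adjustment over all 9514 genes 0 of 10 were called, where 5.67% of genes were called lower. None had an unadjusted p under 0.05 (the count was 0, the lowest p being 0.211 in limma), and 0 were called in every alternative fit. The genes had at least 50% cover in 10 of 10 cases in both libraries, against 44.8% and 47.7% of all genes tested. Of the myotube markers 5 of 8 rose in the same comparison, beside 0.967% of all genes, Myog from 0 in both libraries to 70.6% and 73.2%. With peaks of −log10 q of at least 3 the marker count was 2 of 8, where 42 of 8181 genes rose. With only these groups in the fit 0 of 8 were called, as were 0 of all 9514 genes (1898 had an unadjusted p under 0.05 in limma), and without replicate 1 or replicate 2 of WT day 1 control 106 and 102 genes were called lower in place of 539.

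By day 5 in control medium cover had been lost from most of the group, though not evenly. Compared with day 0, 8 of 10 genes fell (limma, BH-adjusted p under 0.05), where 15.6% of all genes did; compared with day 1, 7 of 10 fell, where 5.95% of all genes did. At least 50% cover was kept by 6 and 4 of 10 genes in the day 5 libraries, against 55.3% and 50.6% of all genes. The median difference from day 0 was −37.7 points, beside −1.17 points over all genes.

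Of the cyclins, Ccnb1 lost most. It had 91.4% and 89.2% at day 0 and 33.7% and 44.1% at day 5, a difference of −51.3 points (SE 6.88, limma adjusted p = 0.000753). Ccna2 had 74.6% and 74.5% and then 73.6% and 70.3%, a difference of −2.59 points (SE 3.30) that was not called (limma adjusted p = 0.629). Ccnb2 had 88.0% and 86.1% and then 76.8% and 67.4%, a difference of −14.9 points (SE 5.0) that missed the threshold (limma adjusted p = 0.0584). With peaks of −log10 q of at least 3, Ccnb2 was called lower (−33.7 points, limma adjusted p = 0.00493). Their partner Cdk1 fell from 93.6% and 94.4% to 78.2% and 70.8%, by 19.5 points (SE 5.05, limma adjusted p = 0.0212). That call was lost without replicate 1 of WT day 0 (0.0589), without replicate 2 of WT day 0 (0.0736) or without replicate 2 of WT day 5 control (0.134), all limma adjusted p-values.

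Among the kinases, Bub1 fell furthest, from 90.0% and 66.3% to 14% and 10.7% (−65.8 points, SE 8.08, limma adjusted p = 0.000465). BUB1 is the checkpoint kinase that sits at kinetochores. Plk1 went from 90.0% and 92.2% to 39.2% and 43.9% (−49.5 points, SE 5.68, limma adjusted p = 0.000318). Aurka, which matures centrosomes, went from 88.4% and 92.0% to 57.8% and 40.8% (−40.8 points, SE 5.52). Aurkb, the kinase of the chromosomal passenger complex, went from 72.7% and 72.3% to 45.3% and 30.7% (−34.5 points, SE 5.34). The day 5 libraries lay below both day 0 libraries for all 10 genes of the group, and for 36.1% of all genes. Mki67, whose product coats mitotic chromosomes, fell from 89.7% and 86.3% to 51.7% and 38.5%, and Top2a from 96.9% and 95.8% to 75.0% and 64.4% (−26.7 points, SE 4.31, limma adjusted p = 0.00216). With peaks also merged over gaps of 1 kb the difference of Top2a was −8.69 points and not called (limma adjusted p = 0.286), and Cdk1 was not called either (−12.6 points, 0.311). Compared with day 1, merging ended the call of Top2a as well (−8.33 points, limma adjusted p = 0.304).

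**Figure D2:**
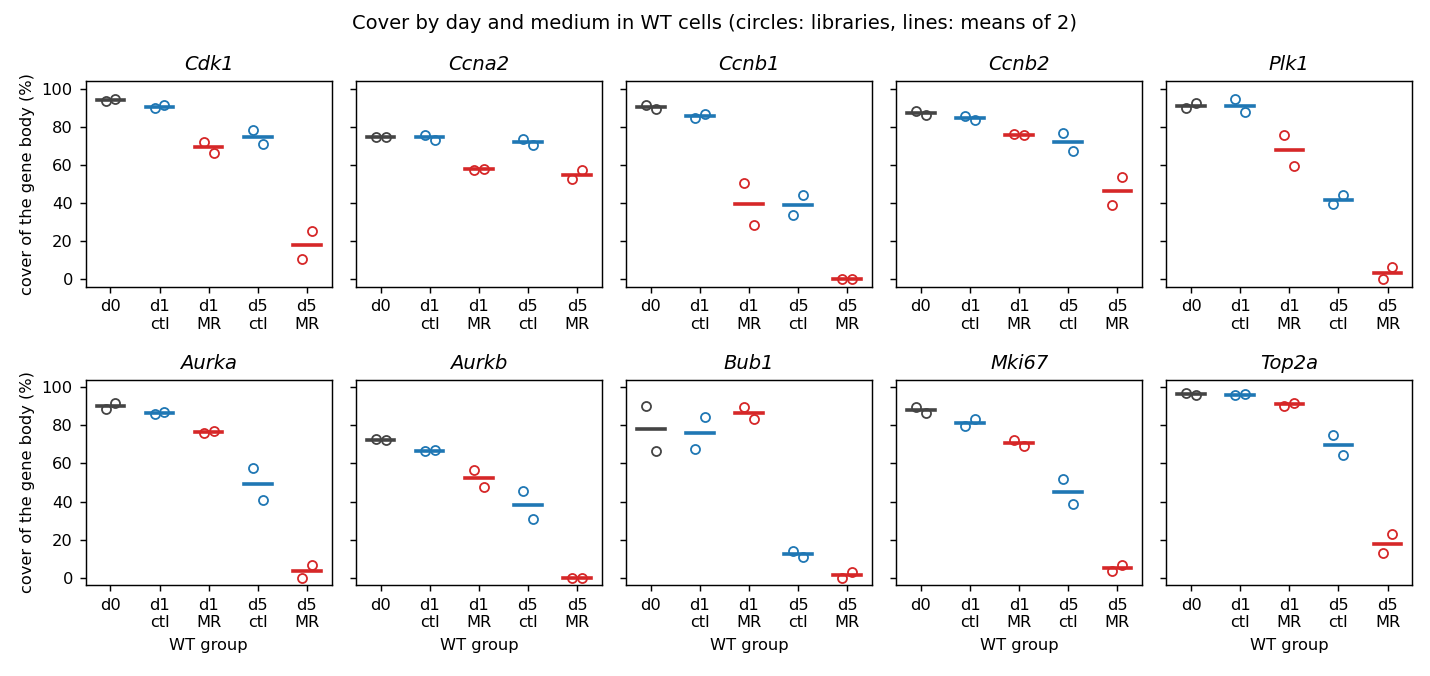
Cover of each gene body (y axis, percent) in the 5 WT groups (x axis), with a circle for each library and a line for the mean of 2. Cover is high at day 0 and day 1 in control medium, visibly lower at day 5 in control medium for all genes but Ccna2, and lowest at day 5 under restriction, where Ccnb1 and Aurkb are at 0.

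After 1 day of methionine restriction cover was called lower on the cyclin genes Ccna2 and Ccnb1 and on Cdk1 and Plk1. Relative to control medium of the same day 4 of 10 fell (limma, BH-adjusted p under 0.05), a share close to the 36% of all genes that fell. At least 50% cover remained on 10 and 8 of 10 genes, against 32.1% and 25.4% of all genes. The median difference was −12.6 points, beside −7.99 points over all genes. Ccnb1 had 84.7% and 86.5% in control medium and 50.7% and 28.6% under restriction (−45.9 points, SE 6.88, limma adjusted p = 0.00128). Plk1 had 94.4% and 87.8% and then 75.7% and 59.6% (−23.4 points, SE 5.68, 0.0125 by limma). Cdk1 had 89.8% and 91.2% and then 71.9% and 66.4% (−21.4 points, SE 5.05, 0.0111 by limma). Ccna2 had 75.8% and 73.0% and then 57.4% and 57.7% (−16.9 points, SE 3.30, 0.0046 by limma). Over the whole group both restricted libraries lay below both controls for 9 of 10 genes, all but Bub1, where 59.6% of all genes showed that.

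The remaining 6 genes were not called at day 1, which does not show that they kept their cover. Aurkb was called lower in 5 alternatives (−14.5 points in each), among them peaks of −log10 q of at least 3 (limma adjusted p = 0.0481) and lists of equal covered length (0.0344), and Aurka with only the groups compared (0.044). Bub1 alone had a positive difference, 10.4 points (SE 8.08), with 67.5% and 84.5% in control medium and 89.4% and 83.4% under restriction, values that overlap. Top2a had 90.3% and 92.0% under restriction (−4.83 points, SE 4.31), and Aurka, Aurkb, Ccnb2 and Mki67 had differences of −8.75 to −14.5 points. Restricted libraries were lower as a whole, and centring each library on its own median adds 15.2 points to every gene at day 1. After centring Ccnb1 was still called lower (−30.7 points, limma adjusted p = 0.00363), Bub1 was called higher (25.6 points, 0.0113) and the differences of Ccnb2, Aurka, Aurkb, Mki67 and Top2a turned positive, none of them called. In that fit 13.1% of all genes were called lower and 3518 of 9514 higher. The median difference of all genes before centring was −7.99 points. Centring ended the calls of Ccna2 (−1.68 points, limma adjusted p = 0.72), Cdk1 (−6.2 points, 0.264) and Plk1 (−8.21 points, 0.222). Cdk1 also lost its call with peaks merged over gaps of 1 kb (−17.3 points, limma adjusted p = 0.122). Without replicate 2 of WT day 1 MR, Cdk1 (−18.6 points) and Plk1 (−15.3 points) lost their calls. Plk1 also lost its call without replicate 1 of WT day 1 control (0.0797), and Cdk1 without replicate 2 of WT day 1 control (0.0614, limma adjusted p).

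Restriction up to day 5 left little peak cover on this group, with 1 and 2 of 10 genes at 50% or more, against 34.4% and 35.5% of all genes. Against control medium of day 5, 9 of 10 genes fell (limma, BH-adjusted p under 0.05), where 41.5% of all genes did, and the median difference was −38.6 points beside −9.16 points over all genes. Against day 0 all 10 fell, where 43.5% of all genes did, with a median of −77.6 points beside −9.84 points. After centring Ccna2 lost this call (−0.72 points, limma adjusted p = 0.876). From restricted day 1 to restricted day 5, 9 of 10 fell (not Ccna2), where 3.71% of all genes did, with a median of −58.3 points beside a median of 4.22 points over all genes. Ccnb1 lost this last call without replicate 1 or replicate 2 of WT day 5 MR (limma adjusted p = 0.051 and 0.0563), with only the groups compared (0.0813), and with peaks of −log10 q of at least 3, where its difference was 0 because no such peak was left on either day. Ccnb2 lost it with only the groups compared (0.0755). These comparisons share libraries and are set side by side only.

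Ccnb1 and Aurkb had no peak in either restricted day 5 library, compared with 33.7% and 44.1% and with 45.3% and 30.7% in control medium. Cdk1 had 10.7% and 25.2% under restriction against 78.2% and 70.8% in control medium (−56.5 points, SE 5.05, limma adjusted p = 7.52e-05). Top2a had 12.9% and 22.7% against 75.0% and 64.4% (−51.9 points, SE 4.31, limma adjusted p = 5.44e-05), a difference that turned to 2.3 points and lost its call (0.665) in lists of equal covered length. Aurka and Plk1 were each at 0 in replicate 1 and at 6.57% and 6.45% in replicate 2, and Mki67 had 3.52% and 6.65%. Over the whole group both restricted libraries lay below both controls for 10 of 10 genes, where 65.4% of all genes showed that.

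Ccnb2 and Ccna2, both called lower, had the most cover left of the 10 genes at restricted day 5. Ccnb2 had 39.0% and 53.6% under restriction against 76.8% and 67.4% (−25.8 points, SE 5.0, limma adjusted p = 0.00363), which was 53.2% of its day 0 mean. Ccna2 had 52.3% and 57.3% against 73.6% and 70.3% (−17.2 points, SE 3.30, limma adjusted p = 0.0034), or 73.5% of its day 0 mean. Centring, which adds 16.7 points at day 5, ended both calls. Bub1, already low in control medium at 14% and 10.7%, was at 0 and 2.78% under restriction (−11.0 points, SE 8.08) and was not called (limma adjusted p = 0.301). With only the groups compared in the fit it was called lower (limma adjusted p = 0.0125), which made the count 10 of 10.

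The calls at day 5 depended on which peaks were kept. The strongest peak of each gene had a −log10 q of 2.13 to 4.84 in the control day 5 libraries, compared with 6.33 to 21.5 at day 0. In the restricted libraries Ccna2 had 6.48 and 6.08, above every control day 5 value, and the other genes with a peak had 1.75 to 4.53. With peaks of −log10 q of at least 3 only 4 of 10 genes were called lower under restriction at day 5, and with WT lists of equal covered length 2 were, Cdk1 and Ccna2. Of all genes tested, 2287 of 8181 (28%) and 2070 of 8362 (24.8%) were called lower under these settings. In the lists of equal length the differences of Plk1, Aurkb and Bub1 were 0. At −log10 q of at least 3 the mean cover of Aurkb was 0 in both media, and that of Cdk1 was 65.9% in control medium and 1.76% under restriction.

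**Figure D3:**
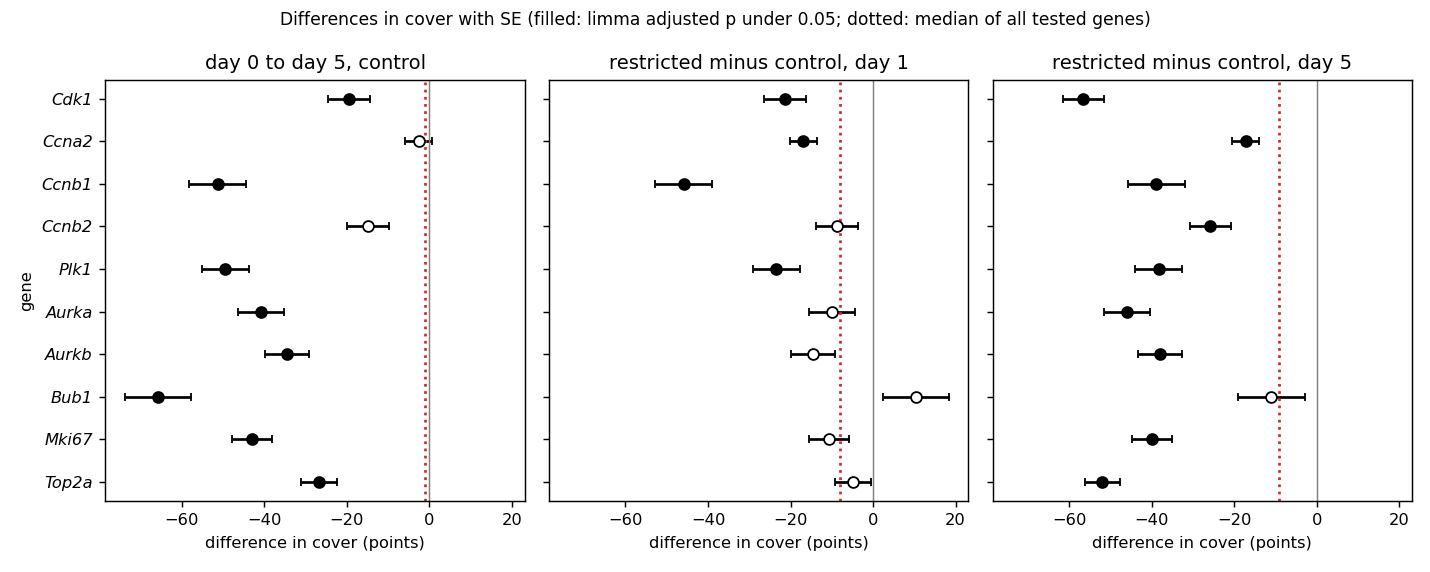
Differences in cover in points (x axis) for the 10 genes (rows) with the standard error from limma as bars, for day 0 to day 5 in control medium and for restricted minus control at days 1 and 5; filled circles have a limma BH-adjusted p under 0.05 and the dotted line is the median over all 9514 genes tested. Most genes lie well to the left of the dotted line in the outer panels; at day 1, 8 of 10 lie to its left and Top2a and Bub1 to its right.

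The restriction effect itself was compared between the days. The difference of effects, day 5 minus day 1, was called for 4 of 10 genes, all with a larger loss at day 5, where 3.58% of all genes were called in that direction. They were Top2a (−47.0 points, SE 6.10, limma adjusted p = 0.00412), Aurka (−36.1 points, SE 7.80, 0.0367), Cdk1 (−35.2 points, SE 7.14, 0.0282) and Mki67 (−29.4 points, SE 6.83, 0.0479). Ccnb1, which had lost much of its cover at day 1, had a difference of effects of 7.0 points (SE 9.73, limma adjusted p = 0.75). With peaks of −log10 q of at least 3 Ccnb1 was called in the other direction (72.4 points, limma adjusted p = 0.0133) and Cdk1 remained called (−38.9 points, 0.0133). Aurka (−0.177 points, limma adjusted p = 0.998), Mki67 (−6.24 points, 0.611) and Top2a (−20.8 points, 0.346) lost their calls there. With WT lists of equal covered length 0 genes were called, and with a replicate block Top2a alone was, so Cdk1, Aurka and Mki67 lost their calls there. Of all genes 7.39% and 4.19% were called in either direction in these fits. Cdk1, Aurka and Mki67 also lost their calls without any WT day 1 library, or without replicate 1 of WT day 5 control or MR. Their differences in these fits were −27.9 to −37.9, −27.6 to −36.6 and −22.7 to −31.2 points. Without replicate 2 of WT day 5 MR, Aurka (−39.4 points) and Mki67 (−30.9 points) lost theirs. Calls over all genes fell as well in each of these fits.

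Position along the body was then read 5′ to 3′ for the 8 genes whose strand the promoter table gives, in 10 equal bins. At day 0 bin 1 was covered to 20.9% on average and every later bin to at least 88.0%, a rise to full cover far earlier than over 7711 tested genes with a known strand (29.2% in bin 2, 71.0% in bin 9). At day 1 the gap between media was widest in bins 2 and 3. Bin 2 had 28.1% against 74.0% in control medium, bin 3 had 56.5% against 96.0%, and bins 5 to 9 had 90.7% to 99.1% against 96.1% to 98.9%. The ends differed as well, with 3.73% against 12.7% in bin 1 and 80.2% against 96.0% in bin 10. Over all genes the same comparison was 11.8% against 21.7% in bin 2 and 51.2% against 62.4% in bin 8. At day 5 in control medium cover rose from 29.5% in bin 2 to 72.1% in bin 7, and under restriction bins 1 to 3 had 0 to 1.44% and bin 8 had the most, 29.9%. These profiles are group means over genes and were not tested.

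Ccna2 was read in genome order and lost cover from one end. It was covered to 100% in its 5 bins of lowest coordinate in all 10 WT libraries, and bin 7 went from 100% in control medium to 0 under restriction on both days. Its covered end is the one that meets Exosc9, which kept 87.7% and 89.5% at restricted day 5. In the part of Ccna2 that no other gene overlaps, cover was 46.6% and 52.3% at restricted day 5 and 70.5% and 66.8% in control medium. How far spread of peaks from Exosc9 enters the cover of Ccna2 was not tested.

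**Figure D4:**
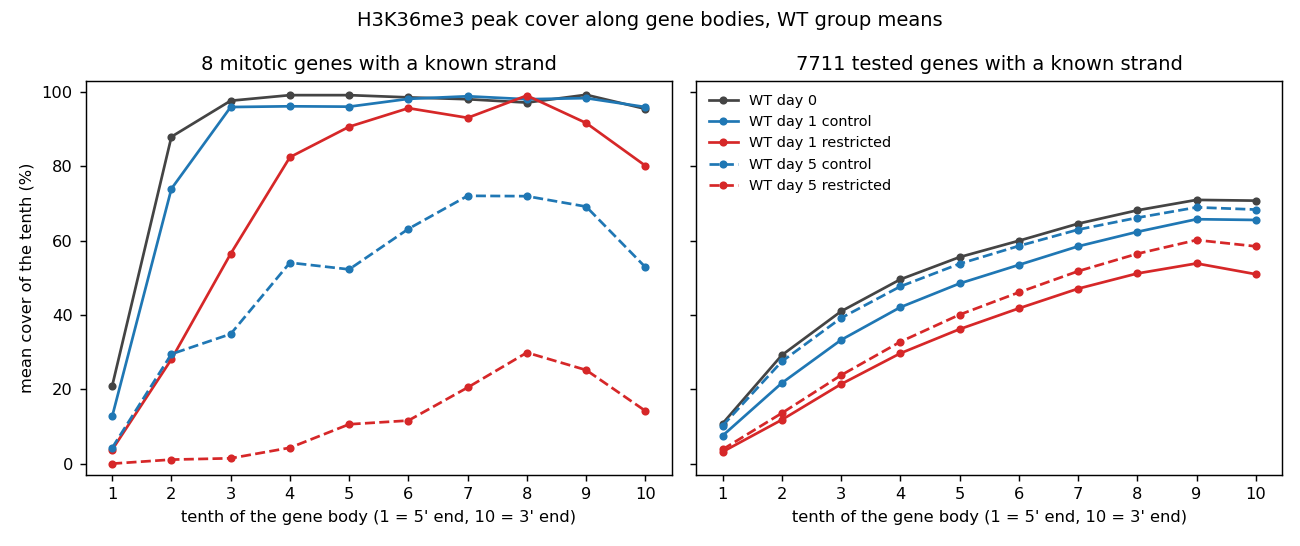
Mean cover (y axis, percent) of 10 equal bins of the gene body from the 5′ end (1) to the 3′ end (10) in the WT groups, for the 8 mitotic genes with a known strand (left) and for 7711 tested genes (right). In the left panel the restricted day 1 line falls away in bins 2 and 3, and the restricted day 5 line does not exceed 29.9%, in bin 8.

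Inside the gene bodies of Top2a and Cdk1 the peaks were shorter at day 5. Top2a carried 1 peak in each day 0 library, with runs of 30.3 and 29.9 kb, 12 and 15 peaks at day 5 in control medium with longest runs of 9.18 and 5.71 kb, and 9 in each restricted day 5 library with longest runs of 1.02 and 1.69 kb. Cdk1 went from a run of 16.6 and 16.8 kb at day 0 to 10.8 and 4.56 kb in control day 5 and 0.858 and 1.58 kb in restricted day 5. Ccna2 carried 1 peak in each of these libraries, with 6.1 and 6.09 kb inside the gene at day 0, 6.02 and 5.75 kb in control day 5 and 4.27 and 4.69 kb in restricted day 5. Its peak ran 2.29 to 2.64 kb beyond the gene in 5 of these 6 libraries and 10.9 kb beyond it in replicate 2 of restricted day 5, so that one was longer than at day 0. The 10 genes together held 13 and 25 peaks at day 0, 54 and 58 at control day 5, and 19 and 30 at restricted day 5.

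Other cell cycle genes were read from a pair of lists. One held 62 further genes of mitotic entry, spindle, checkpoint, condensin and cytokinesis, of which 61 were tested, and the other held 20 cyclin and kinase genes of interphase and transcription, of which 19 were tested. From day 0 to day 5 in control medium 53 of 61 mitotic genes fell and 0 rose, with a median of −52.8 points, and 4 of 19 interphase genes fell and 1 rose, with a median of −3.15 points. Of all genes 15.6% fell and 12.2% rose, and the difference between the lists was not tested. Those that fell most were Ndc80, a kinetochore subunit (94.4% and 92.3% to 9.02% and 15.6%), Kntc1 (86.7% and 79.5% to 2.75% and 2.56%) and the CDK1-activating phosphatase gene Cdc25c (88.8% and 84.8% to 9.62% and 9.67%). In the interphase list the G1 cyclin genes Ccnd2 and Ccne1 fell (−53.4 and −52.1 points), and Mnat1, a subunit of the CDK-activating kinase, rose by 20.6 points. From day 1 to day 5 in control medium the mitotic count was 50 of 61, beside 5.95% of all genes. From day 0 to day 1, 5 of 61 mitotic genes fell, led by Mybl2 (−23.9 points), and 2 of 19 interphase genes did, beside 5.67% of all genes. The mitotic count was 0 lower after centring, with a median of 1.63 points, and 0 with only the groups compared. Of all genes 1.14% and 0.0% were called lower in these fits.

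Under restriction at day 1 the mitotic list split, with 13 of 61 lower and 4 higher where 36% of all genes were lower and 2.38% higher, a split that turned to 4 lower and 36 higher when libraries were centred. Of all 9514 genes, 1245 were lower and 3518 higher in that centred fit. Cdc20, the activator of the anaphase-promoting complex, fell from 77.9% and 78.5% to 9.54% and 5.2%, and its ubiquitin-conjugating enzyme gene Ube2c from 78.3% and 81.9% to 20.5% and 0. Ttk rose from 49.2% and 61.4% to 78.8% and 75.4%. At day 5 restriction lowered 28 of 61 mitotic genes and raised 0, where 41.5% of all genes fell (11 lower and 14 higher after centring, 10 lower of 60 at −log10 q of at least 3, and 6 lower of 60 with a median of 0 in lists of equal covered length), led by Anln (59.2% and 53.6% to 6.82% and 7.29%). Of all 9514 genes, 1395 were lower and 3757 higher after centring at day 5. At −log10 q of at least 3, 28% of all genes were lower, and in lists of equal covered length 24.8% were. Of 19 interphase genes 10 fell at day 1 and 7 at day 5, beside 36% and 41.5% of all genes (4 lower with 6 higher, and 3 lower with 5 higher, after centring), led on both days by Ccnd1, the cyclin D1 gene, at −55.1 and −52.6 points. The centred counts over all genes for each day are those given above. From day 0 to restricted day 5, 60 of 61 mitotic genes and 11 of 19 interphase genes fell, beside 43.5% of all genes. After centring 58 mitotic genes were lower and 0 higher, and 5 interphase genes were lower and 6 higher. Of all 9514 genes, 1402 were lower and 4280 higher in the same fit. From restricted day 1 to restricted day 5, 51 of 61 mitotic genes fell and 1 rose, Bub3, beside 3.71% and 8.73% of all genes. The difference of effects between the days was called for 9 mitotic genes, 6 lower and 3 higher, beside 3.58% and 1.62% of all genes. The counts were 2 lower and 2 higher with a replicate block, and 14 lower and 3 higher with peaks merged over gaps of 1 kb. Over all genes they were 289 lower and 110 higher of 9514 with the block, and 381 and 137 of 9640 with merging.

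Myotube markers moved the other way in time and the same way under restriction. Their median cover was 0 in both day 0 libraries, 91.9% and 92.2% in the control day 5 libraries, and 25.8% and 32.9% in the restricted ones, with 8 of 8 higher from day 0 to day 5, beside 12.2% of all genes, and 7 of 8 lower under restriction at day 5, beside 41.5%. At restricted day 5 the markers differed among themselves: Ttn had 93.5% and 93.4%, Neb 81.2% and 84.5% and Myh3 56.7% and 57.8%, while Myog was at 0 in both libraries. Tnnt3 had 28.4% and 40.8%, Mymk 23.3% and 25.0%, Ckm 11.4% and 3.65% and Acta1 0 and 17.3% there. Ttn already had 81.5% and 61.2% at day 0, where Neb had 0.849% and 0.7%. From day 0 to restricted day 5, 5 of 8 markers rose and 0 fell, where 4.05% of all genes rose and 43.5% fell. The count of markers that rose was 8 of 8 after centring and 3 of 8 with peaks of −log10 q of at least 3. Of all genes, 4280 of 9514 rose after centring and 310 of 8181 with those stricter peaks.

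**Figure D5:**
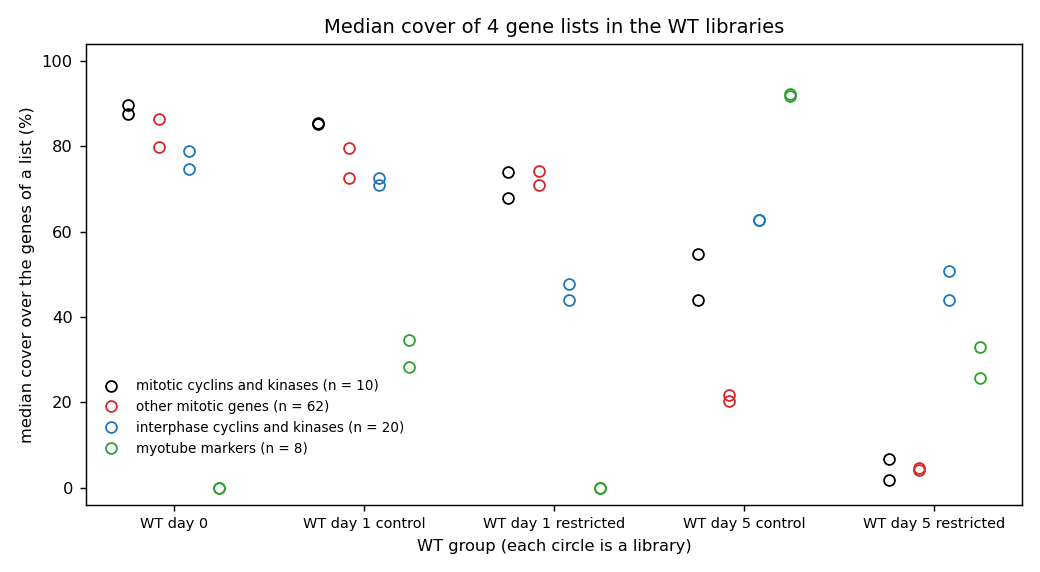
Median cover (y axis, percent) over the genes of 4 lists in each WT library (circles), by group (x axis). The mitotic cyclins and kinases and the other mitotic genes fall by day 5 and lie lowest at restricted day 5, the interphase genes stay between 44.1% and 78.9%, and the myotube markers rise at day 5 in control medium and less under restriction.

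The genes whose cover was most like the mean profile of the 10 over the 10 WT libraries were Spag5, Ncapd2, Troap, Kif18b, Tpx2, Foxm1, Prr11, Anln, Incenp and Ccnf, with Pearson r from 0.98 to 0.99. Of these, 6 of 10 stood on the mitotic list. They share libraries and overall list length, so r is a description. Troap had 84.3% at day 0 and 0 at restricted day 5, and Ncapd2, a condensin subunit, fell less, from 91.9% to 56.6%, since r compares the shape of a course and not its depth. Within the group, r with the mean was lowest for Ccna2 (0.703) and Bub1 (0.872) and highest for Mki67 (0.995).

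Averaged over conditions, the Setd2 KO lines had less cover than WT on all 10 genes. The mean of WT minus KO in the 5 conditions was 43.5 points (Aurkb) to 71.1 points (Ccnb2), and all 10 genes were called (exact permutation within condition, two-sided, 7776 arrangements, p = 0.000257 to 0.00154, BH-adjusted over 8861 genes 0.000334 to 0.00179). As 96.8% of all genes were called with WT higher, the count says little about these genes in particular. The smallest p found, 0.000257, is the smallest the design can give. The test exchanges libraries in each condition separately, while the same KO lines recur in all 5 conditions, so these p-values treat as independent what shares a line and are too small. At restricted day 5 KO was not lower throughout: Cdk1 had 19.4% in KO line 1 and a WT mean of 18%, Ccnb1 had 3.69% and 0, and both KO libraries lay below both WT libraries for 4 of 10 genes, beside 83.5% of all genes. For Ccnb1, Plk1, Aurka, Aurkb and Bub1 the lower WT library was at 0, so no KO value could lie below it. Those 4 genes, Ccna2, Ccnb2, Mki67 and Top2a, had both KO libraries below both WT libraries in all 5 conditions, as did 76.9% of all genes. All 10 remained called without KO line 1 and without KO line 2.

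KO line 1 had peaks on part of the group at day 0 and after 1 day of control medium. At day 0 Top2a had 80.6% and Cdk1 64.2%, so 2 of 10 genes had at least 50% cover, against 2.14% of genes tested. Mki67 had 47.7%, Ccna2 35.8% and Ccnb1 35.3%, and the other 5 lay between 1.69% (Bub1) and 12.5% (Plk1). The median of the 10 was 23.9%, against 0 over the tested genes. At day 1 in control medium Top2a had 85.7%, Cdk1 67.1% and Bub1 0. Again 2 of 10 genes had 50% or more, against 1.65% of genes tested. Ccnb1 had 18.5%, and the median of the 10 was 16.5%, against 0 over the tested genes.

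At day 5 in control medium the line had peaks on more genes overall and fewer on these. The median over tested genes was 8.39% and 16.8% of them had at least 50% cover, while the median of the 10 was 0.997% and 0 of 10 reached 50%, Top2a being highest at 16.3%. Under restriction the library of day 1 had only Top2a at 4.86% and Mki67 at 0.866%, with 0.0% of genes tested at 50% or more. At restricted day 5 Cdk1 had 19.4%, Ccnb1 3.69% and Top2a 3.51%, where 6.46% of genes tested had at least 50% cover. KO line 2 had no peak on any of the 10 genes except at day 5 in control medium, with 0.45% of Cdk1 and 0.297% of Bub1. Each line had 1 library per condition, so these values have no replicate check.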

How the data were processed

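H3K36me3 peak lists of 20 libraries were used, 1 list per library, called per library. Per the submitters' processing notes the build was GRCm38; the peak caller, its control and its filters are not given in the sources used here. Per the labels' protocols, Drosophila chromatin was added as a spike-in, and reads were single end; the lists were used without scaling to it. The fold enrichment (a ratio), −log10 p, −log10 q and score of each peak are the authors' deposited values; fold served to rank and −log10 q to describe and filter the peaks of each library separately, and the score and −log10 p not at all. Peak names inside the files call the KO libraries replicates 1 and 2 of 1 group, and the labels, which name 2 lines, were followed. Depth is unknown, so no counting interval is given.

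Peaks of a library were merged, and cover was the percent of each RefSeq gene body (GRCm38.p6) inside them, over 19304 genes (protein-coding, 2 kb or longer). Genes with mean cover of at least 5% over the 10 WT libraries (9514, all 10 members among them) were fitted with limma 3.58.1 (lmFit, eBayes with trend and robust settings, R 4.3.3) in a model of 5 groups, with BH adjustment within a contrast and a threshold of 0.05. WT and KO were compared per gene by an exact permutation test within condition, BH-adjusted over the 8861 genes with that mean cover over all 20 libraries. Intervals were computed in Python 3.11.15. Both steps were also run on simulated data. In the limma simulation the spread was drawn separately for each gene and library, so it held no library-wide shifts. Alternatives were stricter peaks, lists of equal covered length, merging over 1 kb gaps, other filters, centring, an arcsine scale, body parts free of other genes, other fits, a replicate block and leaving out each library. Members, lists and tests were chosen with earlier results of these data known. All 10 members were named; from the lists, up to 3 genes per direction and contrast with the largest called difference, of which the text gives some; and the 10 non-members with the highest r.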

Additional observations from a re-analysis of the deposited data

Results flagged for a closer look

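For 4 genes the effect of restriction on cover was not the same on both days when the difference of effects was tested (limma, BH-adjusted over 9514 genes). The differences were −35.2 points for Cdk1, −36.1 points for Aurka, −29.4 points for Mki67 and −47.0 points for Top2a, each with the larger loss at day 5. Top2a kept its call in 19 of 21 alternatives, Cdk1 in 11, Aurka in 10 and Mki67 in 6. With WT lists of equal covered length none of the 4 was called (limma adjusted p of 0.111 to 0.931).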

How the results depend on the processing

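Values ranged as follows over the alternatives, of which none was added later. The number of calls over all genes differed between the fits as well. From day 0 to day 1, 0 genes were called in every fit. Leaving out 1 library gave 7 to 8 of 10 called from day 1 to day 5 and 7 to 9 from day 0 to day 5 in control medium, 2 to 5 under restriction at day 1, 9 in each case at day 5, 8 to 9 from restricted day 1 to restricted day 5, and 10 in each case from day 0 to restricted day 5. Over the other settings the counts in control medium were 6 (peaks merged over gaps of 1 kb) to 9 from day 1 to day 5 and from day 0 to day 5. For the difference of restriction effects the range without 1 library was 1 to 5. It was 1 without either day 1 library of either medium, without WT D5_CTL replicate 1 or without WT D5_MR replicate 1, and 2 without WT D5_MR replicate 2. Restriction at day 1 had 2 called genes after centring, Ccnb1 lower and Bub1 higher, where 50.1% of all genes were called. Restriction at day 5 had 4 with −log10 q of at least 3 and 2 in lists of equal length, all lower, beside 28% and 24.8% of all genes. The difference of effects had 2 (Cdk1 lower, Ccnb1 higher by 72.4) with −log10 q of at least 3 and 0 in lists of equal length. Of all genes 6.5% and 7.39% were called there. With a replicate block it had 1 called gene, beside 4.19% of all genes, and the block changed no other count of called members. Deviations of the same replicate number correlated at −0.439 to 0.0614 over 10 pairs of groups. Numbering may differ between groups, so this check cannot tell whether libraries shared a batch.

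Of 41 changes of sign 17 came with centring, which shifts every gene of a library alike. From day 0 to day 1 the centred differences were 5.03 (Cdk1), 8.35 (Ccna2), 3.82 (Ccnb1), 6.11 (Ccnb2), 8.48 (Plk1), 4.69 (Aurka), 2.68 (Aurkb), 6.28 (Bub1), 1.93 (Mki67) and 8.12 points (Top2a), none called. Under restriction they were 6.44 (Ccnb2), 5.21 (Aurka), 0.691 (Aurkb), 4.53 (Mki67) and 10.3 (Top2a) at day 1 and 5.71 (Bub1) at day 5, and the difference of effects was 1.17 (Ccna2). In lists of equal length Bub1 turned to 2.07 from day 0 to day 1, Top2a to 2.30 under restriction at day 5, and the difference of effects to 23.4 (Plk1), 3.23 (Aurka), 14.5 (Aurkb), 1.67 (Mki67) and 7.13 (Top2a). With −log10 q of at least 3 it turned to 1.32 (Ccnb2), 30.8 (Plk1) and 14.5 (Aurkb). Merging over gaps gave 0.714 (Ccnb2, day 1 to day 5) and −3.23 (Ccnb1, difference of effects), and the arcsine scale gave 0.00439 (Plk1, day 0 to day 1) and −0.17 (Ccnb1, difference of effects). Leaving out 1 library, signs turned from day 0 to day 1 for Ccna2 (−1.51 to 1.24), Plk1 (−3.28 to 3.27), Bub1 (−14.0 to 9.62) and Top2a (−0.939 to 0.219), and in the difference of effects for Ccna2 (−2.86 to 2.22) and Ccnb1 (−4.04 to 18). The cause was not tested. Unknown depth limits every comparison.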
